A study of Mus musculus with 8 samples.

Results

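RNA sequencing of EED-null and control mouse embryonic fibroblasts (MEFs) was compared to describe which genes were raised or lowered by genetic loss of Polycomb Repressive Complex 2 (PRC2). The comparison takes in the 2 EED-null and the 2 control libraries, which are 4 of the 8 libraries of the study, and all 875 genes of the deposited table. The authors had limited that table to genes that differed at least 2-fold between EZHIP-expressing and control MEFs. The selection therefore used the same 2 control libraries, and genes outside the table were not analysed here. The selection left 495 genes with a higher and 380 with a lower mean in EZHIP than in control cells, so the numbers of raised and lowered genes below depend on that choice of genes.

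PRC2 is the histone methyltransferase that places H3K27me3, a mark of silenced genes that keeps many developmental regulators off in differentiated cells. EED is a core subunit that binds H3K27me3 and is needed for the activity of the catalytic subunit EZH2. Genes of embryonic patterning with start sites rich in CG dinucleotides are the classical targets of the complex in mammals.

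Control cells were the parental MEFs, isolated from an embryo in which loxP sites flank exons of *EED*, with no Cre treatment. EED-null cells came from these MEFs after a hit-and-run lentivirus carrying Cre recombinase, and a single clone was kept, so both EED-null libraries are from 1 clone. The deletion, the Cre lentivirus and the choice of that clone cannot be told apart. EZHIP cells carried a lentiviral transgene for human EZHIP, and K27M cells carried one for the histone mutant H3.3K27M. Both proteins inhibit PRC2. All 4 groups were grown in the same serum-containing medium, and total RNA was freed of ribosomal RNA before libraries were made, with RNA of FFT cells added to each sample. The table has no entry for *Eed*, and the deletion itself could therefore not be read from these values. Nothing in the labels says that the 2 libraries of a group came from separate cultures, and p-values then measure only the spread between these libraries, which may be technical.

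The values are RSEM estimates of the reads of a gene, divided by 1 size factor for the library and not scaled by gene length. Whether the added FFT-cell RNA entered the size factors is not known. On the listed genes, the control libraries held 306290 and 424561 estimated reads and the EED-null libraries 209390 and 294073. A single read was worth a value of 1.03 and 0.738 in the control libraries and of 1.39 and 0.969 in the EED-null libraries. Changes are given on the scale of log2(value + 1), on which changes of genes near 0 come out too small. A gene was called at an adjusted p under 0.05 (limma, Benjamini-Hochberg over the 875 genes) and at least a 2-fold change. With 2 libraries on each side, the lowest p that an exact two-sided permutation can reach is 0.333. The calls depend on limma borrowing spread from other genes and groups. Where a group was at 0 in both libraries, the fold was taken against 3 reads per library and is a lower bound. Where a ratio of means is given for a group that was detected but held at most 3 reads in each library, its exact 95% interval follows, which covers counting error only.

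In EED-null MEFs, several genes of embryonic patterning that were silent or barely detected in control cells were raised, among them *Hoxd13*, *Pitx1*, *En2*, *Zic1*, *Gata4* and *Sox2*. Most of the listed interferon-response genes and many genes of the fibroblast's extracellular matrix were lowered, among them *Oas2*, *Sp100*, *Eln*, *Prelp* and *Aspn*. Of the 875 genes, 349 were called higher (39.9%) and 220 lower (25.1%) in EED-null than in control cells, and 306 were not called, of which 160 had an adjusted p under 0.05 without reaching 2-fold. None of the 569 called genes had libraries of EED-null and control cells that overlapped. Among all 875 listed genes, called or not, the libraries did not overlap for 470 that were higher and 338 that were lower. Such separation is therefore common in the table and does not mark the called genes.

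The rises were larger than the falls. The median log2 change was 2.95 over the genes called higher and -1.87 over those called lower, or 2.88 and -1.86 with silent groups set to 3 reads. A change of at least 10-fold in the mean was reached by 144 of the 349 genes called higher (41.3%) and by 48 of the 220 called lower (21.8%). Genes called higher started low, with a median control value of 15.4 that became 165 in EED-null cells. Genes called lower started high, with a median control value of 267 that became 70.5. In control cells, 101 of the 875 genes were silent or nearly so, with 3 reads or fewer in each library. Of these, 94 were called higher, with EED-null means between 1.18 and 665 and a median of 64.6, and 3 of the called genes were at or under 3 reads in the EED-null libraries too. Genes this low in control could enter the table almost only by being higher in EZHIP cells, and they could hardly be called lower. The count of 94 therefore follows in part from the choice of genes. The other 255 genes called higher were already detected in control cells. In the opposite direction, 29 genes held at most 3 reads in each EED-null library, and 18 of them were called lower.

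**Figure D1:**
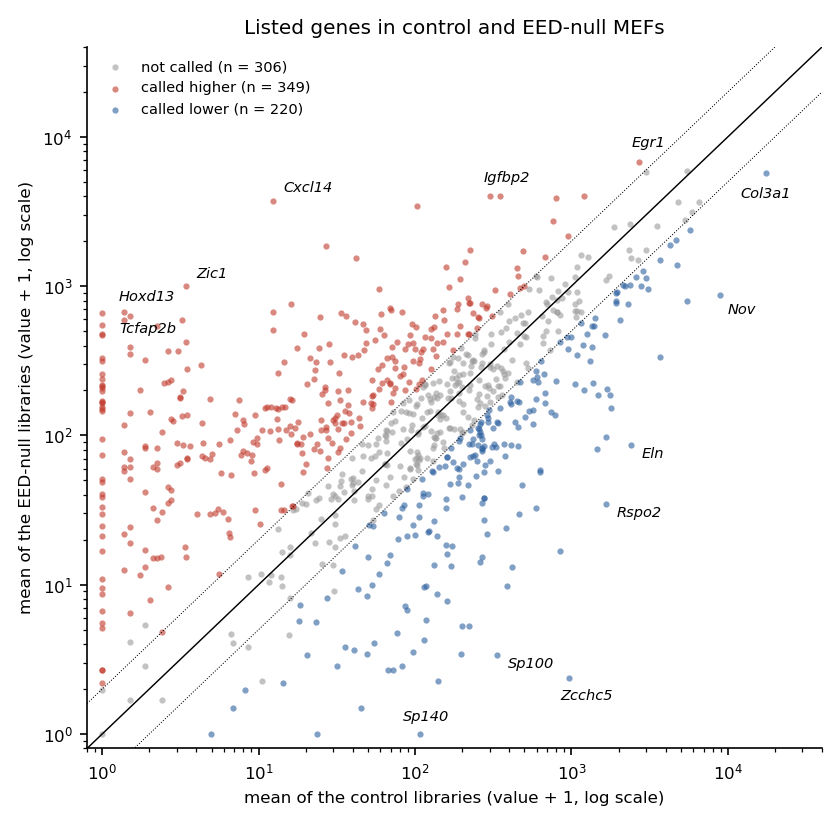
Mean value + 1 of each of the 875 listed genes in the 2 control libraries (x axis) and the 2 EED-null libraries (y axis), both on log scales, with the solid line at equality and the dotted lines at a 2-fold difference. The 349 genes called higher include a column of genes at 0 in control cells on the left edge, and the 220 genes called lower reach down to 0 in EED-null cells.

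The median log2 change over all listed genes was 0.40. Rescaling the libraries on the listed genes themselves moved that median to 0.01 and reversed the sign of the medians of the endothelial, neuron, Polycomb, matrix protease, Hedgehog and Notch, and contractile lists. With it 311 genes were called higher and 281 lower, so that 52.5% of calls were higher rather than 61.3%. All 311 were among the 349, and all 220 genes called lower remained so. Whether the total amount of RNA differed between the groups is not known from these values.

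On the scale of log2(value + 1) the largest rise was that of *Hoxd13*, a homeobox gene of the *HoxD* cluster that patterns the digits and the genital bud. Its value was 0 in both control libraries and 658 in each EED-null library, at least 249-fold higher, with a log2 change of 9.36 ± 0.13 (SE, limma, adjusted p = 8.50e-08). With low groups set to 3 reads, *Zic1* (8.56), *Cxcl14* (8.35) and *Pitx1* (7.97) had larger log2 changes than *Hoxd13* (7.96). *Tcfap2b*, which encodes the transcription factor AP-2 beta of neural crest and kidney, was at 0 in both control libraries and at 551 and 545 in the EED-null libraries, at least 207-fold higher. *Zcchc5*, a gene derived from a retrotransposon gag sequence, had the largest fall. It was at 976 and 951 in control and at 2.77 and 0 in EED-null libraries, with a log2 change of -8.96 ± 0.58 (SE, limma, adjusted p = 2.21e-05). The ratio of control to EED-null was 695, with a counting interval from 233 to 6964. *Aoc3*, which encodes a membrane amine oxidase also known as vascular adhesion protein, was at 195 and 198 in control and at 0 and 4.85 in EED-null libraries, a log2 change of -6.35.

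The 250 bases before the start sites of these 4 genes are shown, since CG dinucleotides, set in capitals, differed in number between raised and lowered genes. All are from the mm9 genome, read 5′ to 3′ on the strand of the gene, and lie outside annotated transcripts. The window of *Hoxd13* is chr2:74506117-74506366 on the plus strand, that of *Tcfap2b* chr1:19198745-19198994 on the plus strand, that of *Zcchc5* chrX:104035984-104036233 on the minus strand and that of *Aoc3* chr11:101191669-101191918 on the plus strand. They hold 31, 10, 5 and 3 CG dinucleotides.
Hoxd13: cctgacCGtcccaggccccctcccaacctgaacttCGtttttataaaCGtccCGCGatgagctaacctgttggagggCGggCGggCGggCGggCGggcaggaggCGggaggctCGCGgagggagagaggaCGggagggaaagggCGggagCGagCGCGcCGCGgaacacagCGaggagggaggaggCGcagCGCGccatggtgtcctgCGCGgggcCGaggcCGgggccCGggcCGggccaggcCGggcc
Tcfap2b: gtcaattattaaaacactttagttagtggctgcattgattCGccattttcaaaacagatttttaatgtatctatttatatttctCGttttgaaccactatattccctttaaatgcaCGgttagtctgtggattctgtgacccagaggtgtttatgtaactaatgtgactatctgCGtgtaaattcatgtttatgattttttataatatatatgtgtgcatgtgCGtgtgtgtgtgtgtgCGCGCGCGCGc
Zcchc5: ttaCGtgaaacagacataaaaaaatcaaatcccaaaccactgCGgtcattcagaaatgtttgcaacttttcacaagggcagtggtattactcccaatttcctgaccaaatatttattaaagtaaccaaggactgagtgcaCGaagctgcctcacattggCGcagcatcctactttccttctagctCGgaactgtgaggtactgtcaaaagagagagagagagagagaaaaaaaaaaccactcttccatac
Aoc3: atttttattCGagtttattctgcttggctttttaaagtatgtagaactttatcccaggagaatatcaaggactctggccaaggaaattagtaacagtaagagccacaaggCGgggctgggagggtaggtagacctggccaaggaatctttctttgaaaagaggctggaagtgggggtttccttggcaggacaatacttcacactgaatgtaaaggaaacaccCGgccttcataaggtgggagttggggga

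Over all genes with a single annotated position, the median number of CG dinucleotides in this window was 16 for the 344 genes called higher, 13 for the 291 not called and 7 for the 215 called lower. It was 8.5 over 22380 protein-coding genes of the annotation. At least 10 CG dinucleotides were found before 70.3% of the genes called higher, 37.7% of those called lower, 63.6% of those not called, 59.8% of all listed genes and 47.3% of all protein-coding genes. Genes called higher from at most 3 reads in control had a median of 14, and those called higher from above that level had one of 17. *Gata4*, *Mmp13*, *Mmp10* and *Sp8* were raised with a single CG dinucleotide in the window, and *Ebf3* was lowered with 43. These numbers describe the windows and are not a test. With the 5′ end of the gene as the start site, an alternative chosen after seeing the data, the medians were 16, 13 and 7. The window of *Gata4* then held 6 CG dinucleotides.

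**Figure D2:**
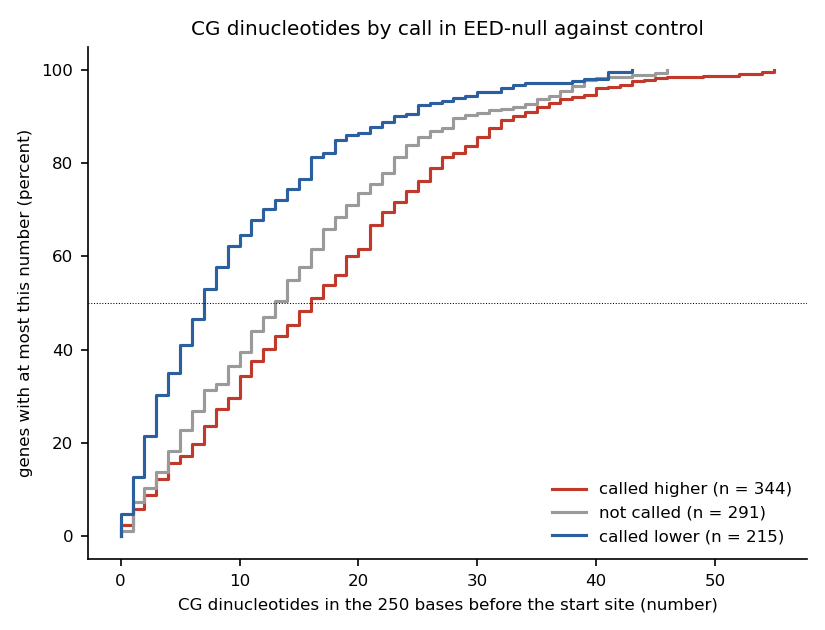
Cumulative percent of genes (y axis) by number of CG dinucleotides in the 250 bases before the start site (x axis), for genes called higher, not called and called lower in EED-null against control MEFs. The curves cross the dotted line at 50 percent near the medians of 16, 13 and 7 CG dinucleotides.

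The 15 genes picked for the largest rises included several that encode transcription factors, described here gene by gene. *Pitx1*, which specifies the hindlimb and the pituitary, went from 0 and 0.738 in control to 695 and 636 in EED-null libraries. The ratio was 1802, with a counting interval from 275 to 60754. *Sim1*, a basic helix-loop-helix factor of hypothalamic neurons, was at 0 in both control libraries and at 511 and 436 in EED-null libraries, at least 179-fold higher. *En2*, a homeobox gene of the midbrain and hindbrain boundary, was at 0 in control and at 456 and 479 in EED-null libraries, at least 177-fold higher. In these 3 genes no library of a group came near the other group, and genes with overlapping libraries could not be picked.

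The zinc-finger genes *Zic1* and *Zic2*, regulators of cerebellar and forebrain development, were also among the genes raised most. *Zic2* was at 0 and 0.738 in control and at 604 and 587 in EED-null libraries, a ratio of 1613 with a counting interval from 248 to 54681. *Zic1* went from 4.11 and 0.738 to 968 and 1035, a ratio of 413. *Gata4*, which acts in heart and endoderm, was at 1.03 and 0 in control and at 632 and 633 in EED-null libraries. Its log2 change was 8.80 ± 0.32 (SE, limma, adjusted p = 2.35e-06). *Dmbx1*, a paired-type homeobox gene of the embryonic brain that the homeobox list below does not include, was at 0 in control and at 351 and 310 in EED-null cells. *Sp8*, needed for limb outgrowth, went from 1.03 and 0 to 333 and 364. *Sox2*, a regulator of pluripotent and neural progenitor cells, was at 0 in both control libraries and at 245 and 270 in EED-null libraries, at least 97.4-fold higher.

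**Figure D3:**
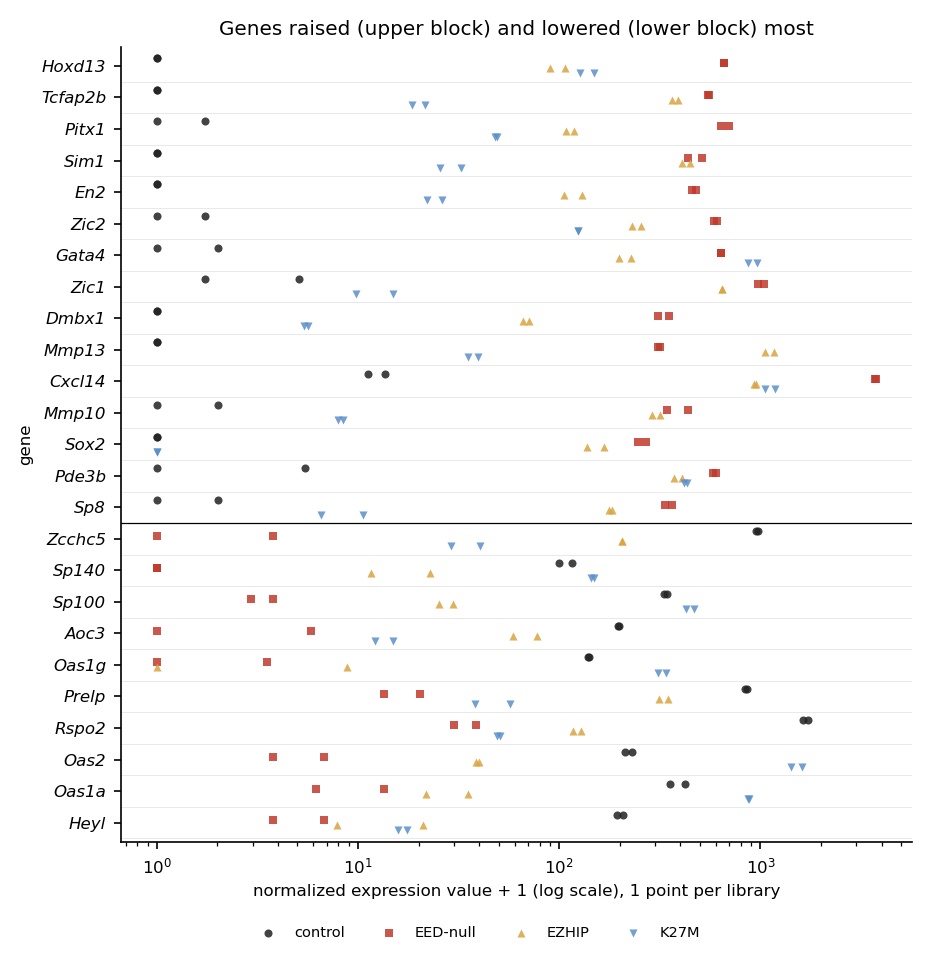
Value + 1 (x axis, log scale) in each of the 8 libraries for the 15 named genes with the largest rise (upper block) and the 10 with the largest fall (lower block) between control and EED-null MEFs, with 1 point per library and EZHIP and K27M cells for reference. Control libraries sit at the left in the upper block and at the right in the lower block for EED-null against control. The absence of overlap between these groups was a condition for picking the genes.

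Lists of transcription factor families were taken by gene symbol. The *Hox*, other homeobox, forkhead, Sox, T-box, zinc-finger and basic helix-loop-helix lists together had 51 genes in the table. Of these, 38 were called higher and 6 lower in EED-null cells, beside 39.9% and 25.1% of all listed genes. Their median log2 change was 5.54, or 5.15 with silent groups set to 3 reads, beside 0.40 and 0.42 over all listed genes. At most 3 reads in each control library were found for 25 of the 51, and all 25 were called higher, as were 94 of all 101 listed genes that low in control cells. Genes that low could hardly be called lower, and the selection of the table favoured those raised in EZHIP cells. This count therefore adds no support. The windows of the 50 with a single position held a median of 19 CG dinucleotides.

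*Hox* genes, which set position along the body axis, had 8 members in the table, 6 of them called higher and 1 lower, beside 39.9% and 25.1% of all listed genes. The members called higher were *Hoxd13*, *Hoxb13*, *Hoxd10*, *Hoxc13*, *Hoxa11* and *Hoxb9*. *Hoxb13* went from 1.03 and 1.48 in control to 539 and 534 in EED-null libraries, and *Hoxb9*, already expressed in control cells at 132 and 142, went to 396 and 432. *Hoxd10* was at 0 in both control libraries and at 152 and 155 in EED-null libraries, at least 58.1-fold higher. *Hoxa11*, which patterns the forearm, went from 2.05 and 2.95 to 65.2 and 74.6. The more anterior *Hoxa5* and *Hoxc8* did not follow. *Hoxa5* was at 198 in both control libraries and at 98.4 and 108 in EED-null libraries (log2 change -0.94, not called, but called at -1.002 without EED-null library 2 and at -1.33 after rescaling). *Hoxc8* was at 43.1 and 62.7 in control and at 23.6 and 24.2 in EED-null libraries, called lower at a log2 change of -1.09 (limma, adjusted p = 0.0386). The call of *Hoxc8* was lost without EED-null library 1 or 2 (-1.07 and -1.11), without control library 2 (-0.83) and without K27M library 1 or 2 (-1.09). It was also lost with pseudocounts of 0.1 (-1.12) and 5 (-0.98) and with a block for replicate number (-1.09).

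Among 15 other homeobox genes, 13 were called higher and none lower, beside 39.9% and 25.1% of all listed genes. *Nkx2-3*, of gut mesoderm and spleen, was at 0 in control and at 204 and 225 in EED-null libraries. *Vax2*, of the ventral retina, was at 0 in control and at 225 and 210 in EED-null libraries. Eye and forebrain regulators *Otx2* and *Six3* rose as well. *Otx2* was at 0 in both control libraries and at 180 and 146 in EED-null libraries, and *Six3* went from 1.03 and 2.21 to 360 and 371. *Isl1*, of motor neurons and heart progenitors, was at 0 in control and at 155 and 144 in EED-null cells, and *Msx1*, of limb and face, went from 4.11 and 0.738 to 424 and 417. *Alx4* and *Lmx1b*, which pattern limb and craniofacial mesenchyme, were detected in control cells and not called. *Alx4* was at 1201 and 1104 in control and at 646 and 702 in EED-null libraries, and it was called lower after rescaling (-1.17).

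Of 6 forkhead genes, 4 were called higher and none lower, beside 39.9% and 25.1% of all listed genes. *Foxa1*, a pioneer factor of endoderm, was at 0 in control and at 141 and 147 in EED-null libraries, at least 54.5-fold higher. *Foxl2*, the regulator of ovarian granulosa cells, was at 0 in control and at 105 and 82.4 in EED-null libraries. *Foxd1*, of kidney stroma and retina, went from 7.19 and 15.5 to 541 and 476. *Foxp2* was at 80.1 and 96.0 in control and at 95.7 and 90.1 in EED-null libraries and was not called. Both listed T-box genes rose. *Tbx20*, of the heart, was at 0 in control and at 161 and 178 in EED-null libraries, and *Eomes*, of mesendoderm and cortical progenitors, went from 7.19 and 15.5 to 634 and 708.

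The Sox list had *Sox2*, *Sox9* and *Sox12*, of which *Sox2* and *Sox9* were called higher. *Sox9*, the regulator of cartilage, went from 18.5 and 28.8 to 83.2 and 71.7, a log2 change of 1.70. The zinc-finger list held *Gata4*, *Gli1*, *Zic1*, *Zic2*, *Zic4*, *Sall1*, *Sall3*, *Egr1*, *Egr2*, *Egr3* and *Klf5*. Of these 11 genes 10 were called higher and none lower, beside 39.9% and 25.1% of all listed genes. *Sall3* was at 0 in control and at 225 and 248 in EED-null libraries, at least 89.3-fold higher. *Gli1*, a target and effector of Hedgehog signalling, was the member not called, at 38.0 and 40.6 in control and 51.3 and 50.4 in EED-null libraries. The immediate early gene *Egr1* had one of the 5 largest rises in the value itself, from 2725 and 2718 to 7118 and 6473. Its log2 change was 1.32 ± 0.10 (SE, limma, adjusted p = 5.07e-05), which fell to 0.92 and was not called after rescaling on the listed genes.

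Among the transcription factor lists, the basic helix-loop-helix list, which includes the related *Ebf* genes, went mostly down. Of 6 listed, *Sim1* was called higher and the other 5 were called lower, beside 39.9% and 25.1% of all listed genes. *Heyl*, *Hey1* and *Hey2* encode transcriptional repressors induced by Notch signalling. *Heyl* went from 193 and 206 in control to 2.77 and 5.81 in EED-null libraries, a log2 change of -5.30 ± 0.49 (SE, limma, adjusted p = 0.000105). *Hey1* went from 301 and 249 to 40.2 and 33.9, and *Hey2* from 17.5 and 17.0 to 5.55 and 3.88. *Ebf1* and *Ebf3*, factors of mesenchymal, blood and neuronal lineages, fell to similar extents. *Ebf3* went from 678 and 668 to 195 and 190, a log2 change of -1.80. The Notch ligand gene *Jag1* fell from 1498 and 1428 to 94.3 and 66.9, while its relative *Jag2* rose from 7.19 and 8.86 to 77.5 and 67.8.

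**Figure D4:**
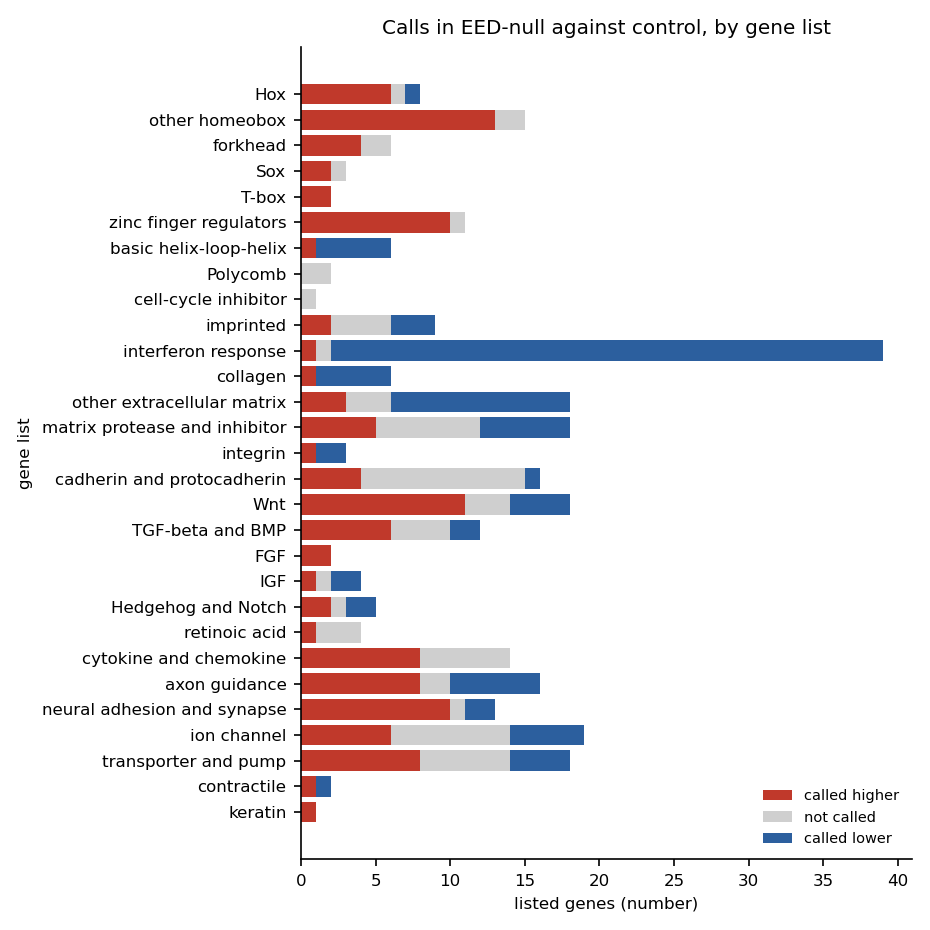
Number of listed genes (x axis) called higher, not called and called lower in EED-null against control MEFs in each gene list of the table (y axis). Homeobox, forkhead and zinc-finger lists were mostly called higher, and 37 of the 39 interferon-response genes and 12 of the 18 genes of other extracellular matrix were called lower.

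The interferon-response list fell almost as a whole. Of 39 listed genes 37 were called lower, beside 25.1% of all listed genes, 1 was called higher and 1 was not called. The median log2 change was -2.35, or -2.27 with silent groups set to 3 reads, and -2.74 after rescaling. Over the list, the median value was 341 and 345 in the control libraries and 69.3 and 77.5 in the EED-null libraries. Even so, most members stayed detectable, and the highest value in the list was 475 and 474 in the EED-null libraries. The table was chosen on EZHIP against the same control libraries, and the list medians were also low in EZHIP libraries, at 118 and 108. The choice of genes therefore favoured falls in this list, and 25.1% is not a like background for the count of 37. Interferon-response genes outside the table were not read. Counts of the other lists are limited by the same choice.

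Several antiviral effectors were among the members with the largest falls. *Oas2*, which encodes an oligoadenylate synthetase that activates RNase L upon double-stranded RNA, went from 210 and 229 in control to 2.77 and 5.81 in EED-null libraries. Its log2 change was -5.44 ± 0.27 (SE, limma, adjusted p = 7.43e-06). The relatives *Oas1a* and *Oas1g* fell by 5.40 and 6.21 on the log2 scale, and since they are close copies, reads may have been divided between them. *Sp100*, a component of nuclear bodies that restrict viruses, went from 341 and 330 to 2.77 and 1.94, a ratio of 142 with a counting interval from 57.1 to 540. *Sp140*, a relative of *Sp100* next to it on chromosome 1 and not on the list, was at 98.3 and 115 in control and at 0 in both EED-null libraries, at least 30.1-fold lower. *Mx1*, which blocks influenza virus, went from 99.0 and 93.6 to 4.16 and 0.969, and *Trim30a* from 416 and 417 to 12.5 and 11.6.

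Genes of RNA sensing and interferon signalling fell too. *Ifih1* and *Ddx58*, which encode the RNA sensors MDA5 and RIG-I, had log2 changes of -2.03 and -1.41. *Stat2*, which carries the interferon signal to the nucleus, went from 1355 and 1346 to 416 and 368, and *Irf7*, the factor that amplifies interferon production, from 224 and 210 to 63.8 and 27.1. The antigen-processing genes *Psmb8*, *Tap1* and *Tap2* had log2 changes of -1.45, -1.02 and -1.15, and the call of *Tap1* was lost without EED-null library 1 (-0.95). *Ifitm1* was the member called higher, from 21.6 and 26.6 to 129 and 123. *Ifi30*, which encodes a lysosomal reductase, was at 656 and 655 in control and at 463 and 456 in EED-null libraries and was not called.

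The promoter windows of this list were poor in CG dinucleotides, with a median of 3. The sequence GAAA, followed by any 2 bases and again GAAA, the core of the element bound by the interferon-activated factor ISGF3, was searched on both strands. It was found in 15 of the 39 windows (38.5%), beside 3.41% of the windows of all protein-coding genes. Among all genes called lower the share was 13.5%, among those called lower outside the list 7.87% and among genes called higher 3.20%. A match describes the letters and is not shown to be a bound site. Stretches with the match in capitals are shown for the genes with the largest falls among members with a match outside annotated transcripts, on mm9, 5′ to 3′ on the strand of the gene. They are *Oas2* at chr5:121199914-121199943, *Oas1a* at chr5:121357537-121357558, *Trim30a* at chr7:111613724-111613753 and *Slfn8* at chr11:82834341-82834370, all on the minus strand, and *Rtp4* at chr16:23609970-23609999 and *Gbp5* at chr3:142159723-142159752 on the plus strand. In *Oas1a* 2 matches overlap. The call of *Gbp5* was lost without control library 1 (-2.07) and in a fit of the compared groups alone (-2.41).
Oas2: cacacttgagTTTCGATTTCctaggttcct
Oas1a: tcggGAAATGGAAACTGAAAat
Trim30a: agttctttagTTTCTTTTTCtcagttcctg
Slfn8: atttgagcagTTTCGTTTTCcccaaaagca
Rtp4: aaagaaccggGAAACTGAAActgttctttg
Gbp5: acttgtgtagTTTCAATTTCagtttagaga

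**Figure D5:**
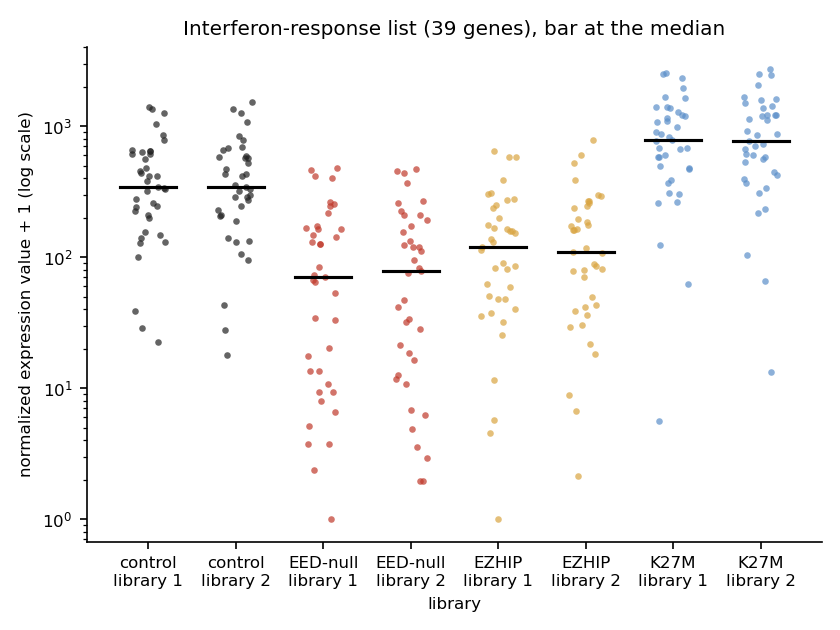
Value + 1 (y axis, log scale) of the 39 interferon-response genes in each of the 8 libraries (x axis), with 1 point per gene and a bar at the median. The medians are 341 and 345 in control, 69.3 and 77.5 in EED-null, 118 and 108 in EZHIP and 790 and 764 in K27M libraries.

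Many genes of the fibroblast's extracellular matrix fell. Of 6 collagen genes 5 were called lower and 1 higher, and of 18 genes of other matrix proteins 12 were called lower, 3 higher and 3 not called, beside 25.1% lower and 39.9% higher among all listed genes. With a pseudocount of 5, the calls of *Col6a4* (-0.91) and *Col28a1* (0.92) were lost, and that of *Col6a4* was also lost without EED-null library 2 (-0.97) or control library 1 (-0.94). The medians of the log2 changes were -1.70 and -1.27. *Col3a1*, which encodes the fibrillar collagen of skin and vessels, had the largest fall in the value itself, from 17665 and 17245 to 5733 and 5641. Its log2 change was -1.62 ± 0.11 (SE, limma, adjusted p = 2.68e-05). *Eln*, which encodes elastin, went from 2478 and 2325 to 73.5 and 95.9, and *Fbn1*, which encodes the fibrillin of elastic microfibrils, from 4760 and 4715 to 1417 and 1361. *Prelp* and *Aspn* encode leucine-rich proteoglycans that bind collagen. *Prelp* went from 857 and 836 to 12.5 and 19.4, and *Aspn* from 1631 and 1701 to 101 and 92.1. *Col14a1*, whose product lies on the surface of collagen fibrils, went from 248 and 272 to 13.9 and 12.6. The basement membrane genes *Lama2*, *Lama4* and *Nid1* had log2 changes of -1.28, -1.69 and -1.27. Among matrix genes called higher, *Npnt*, which encodes the integrin ligand nephronectin, went from 22.6 and 31.7 to 417 and 395, and *Spp1*, which encodes osteopontin, from 443 and 452 to 1325 and 1330.

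Of 12 markers of fibroblasts, *Col3a1* and *Dcn* were in the table, and both fell. The other markers were outside the table and could not be read. Both listed markers also had lower means in EZHIP than in control cells, 6532 against 17455 for *Col3a1* and 154 against 372 for *Dcn*. The choice of genes therefore favoured their fall. *Dcn*, which encodes the proteoglycan decorin, went from 364 and 380 to 69.3 and 73.6. The summed value of both was 18030 and 17625 in control and 5802 and 5715 in EED-null libraries, nearly all of it from *Col3a1*. The epithelial markers *Epcam* and *Krt14*, 2 of 11, were called higher, and their sum stayed low, at 6.16 and 3.69 in control and 43.0 and 24.4 in EED-null libraries. *Krt14* was at 0 in control and at 4.16 and 4.05 in EED-null libraries, and its call was lost with a pseudocount of 5 (0.86). Of 8 markers of neural progenitors *Sox2* was listed, of 9 of cartilage and bone *Sox9*, of 10 of endothelium *Kdr* and of 9 of neurons *Stmn2*. *Kdr*, at 9.24 and 9.60 in control and 11.1 and 10.7 in EED-null libraries, and *Stmn2*, at 44.1 and 45.0 and at 73.5 and 39.7, were not called. Markers of macrophages, skeletal muscle and adipocytes were not in the table. In bulk RNA, fewer cells of a type and less RNA per cell cannot be told apart, and the part of cell identity in the matrix and interferon changes was not tested.

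Matrix proteases moved both ways. Of 18 proteases and inhibitors 5 were called higher, 6 lower and 7 not called, beside 39.9% higher and 25.1% lower of all listed genes, and the median log2 change of 0.13 became -0.26 after rescaling. *Mmp13*, *Mmp10*, *Mmp3* and *Mmp12*, which encode a collagenase, stromelysins and the macrophage metalloelastase, are neighbours on chromosome 9 between positions 7272514 and 7510238 of mm9. All rose from at most 3 reads in each control library. *Mmp13* was at 0 in both control libraries and at 316 and 310 in EED-null libraries, at least 118-fold higher. *Mmp10* went from 1.03 and 0 to 341 and 435, and *Mmp3* from 0 in both libraries to 205 and 208. Among those called lower, *Adam23*, which encodes a neural adhesion protein without protease activity, went from 446 and 477 to 30.5 and 27.1. *Adamts1*, which cleaves aggrecan and versican, fell from 2293 and 2283 to 765 and 752. The laminin receptor subunit gene *Itga6* rose from 46.2 and 48.7 to 439 and 394, while the collagen receptor genes *Itga1* and *Itga11* had log2 changes of -1.27 and -1.20.

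Signalling genes changed in both directions. Of 18 Wnt pathway genes 11 were called higher and 4 lower, beside 39.9% and 25.1% of all listed genes, with a median log2 change of 1.71. *Lef1* and *Tcf7*, which encode the nuclear partners of beta-catenin, and *Axin2*, *Nkd2* and *Notum*, which encode feedback inhibitors that Wnt signalling induces, were all called higher. *Lef1* went from 3.08 and 1.48 to 218 and 176, and *Axin2* from 55.4 and 58.3 to 287 and 268. *Sfrp1*, which encodes a secreted antagonist, rose from 31.8 and 19.9 to 1921 and 1797, a log2 change of 6.15 ± 0.22 (SE, limma, adjusted p = 2.35e-06). R-spondins enhance Wnt signals at the membrane. *Rspo2* fell from 1629 and 1718 to 29.1 and 37.8, *Rspo3* fell from 105 and 120 to 40.2 and 36.8, and *Rspo1* rose from 1.03 and 0 to 44.4 and 56.2. The receptor genes *Fzd4* and *Fzd8* were called lower and *Fzd1* higher.

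Of 12 genes of TGF-beta and BMP signalling, 6 were called higher and 2 lower, or 5 and 3 after rescaling, beside 39.9% and 25.1% of all listed genes. *Inhbb*, which encodes an activin subunit, went from 18.5 in each control library to 495 and 452. The antagonists of BMP and activin *Nog*, *Fst* and *Grem1* all rose, *Nog* from 5.13 and 5.90 to 90.1 and 94.0. *Bmp7* went from 0 and 2.21 to 72.1 and 48.5. *Smad9*, an intracellular mediator, fell from 188 and 187 to 40.2 and 53.3. Both listed genes of the FGF list rose, among them *Dusp6*, which encodes a phosphatase that limits ERK, from 94.4 and 82.7 to 399 and 422. Insulin-like growth factor genes divided. *Igfbp2*, which encodes a binding protein, rose from 356 and 342 to 3891 and 4088, whereas *Igfbp5* fell from 3779 and 3601 to 324 and 340 and *Igf1* from 2822 and 2909 to 1257 and 1267. *Hhip*, which encodes a decoy receptor for Hedgehog ligands, rose from 2.05 and 2.21 to 187 and 170. Of 4 genes of retinoic acid metabolism *Crabp1*, which encodes a binding protein, was called higher, at a log2 change of 1.05 that became 0.65 and was not called after rescaling.

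Of 14 genes of the cytokine and chemokine list, which includes some growth factor genes, 8 were called higher and none lower, beside 39.9% and 25.1% of all listed genes. After rescaling 6 were called higher. *Cxcl14*, which encodes a chemokine of epithelia and fibroblasts, went from 10.3 and 12.5 in control to 3715 and 3751 in EED-null libraries, one of the 5 largest rises in the value itself. Its log2 change was 8.24 ± 0.13 (SE, limma, adjusted p = 9.64e-08). *Cxcr4*, the receptor of CXCL12 in cell migration, went from 0 and 2.95 to 243 and 204, and *Pdgfc*, a ligand of the PDGF receptor, from 58.5 and 59.8 to 640 and 655. *Cxadr*, which is not on that list and encodes a junction protein that also serves as a virus receptor, rose from 297 and 308 to 3990 and 4021. In the opposite direction, and also outside the list, *Nov*, which encodes the matricellular protein CCN3, fell from 8809 and 8885 to 900 and 830. *Ptn*, which encodes the growth factor pleiotrophin and is not on the list either, fell from 5518 and 5420 to 714 and 865.

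Genes used by neurons were also in the table. Of 13 genes of neural adhesion and synapses 10 were called higher and 2 lower, beside 39.9% and 25.1% of all listed genes, with a median log2 change of 2.84. *Nfasc*, which encodes neurofascin of the axon initial segment, went from 0 and 0.738 to 110 and 122, and *L1cam*, an adhesion gene of growing axons, from 42.1 and 39.1 to 621 and 523. *Syt13*, a member of the synaptotagmins, went from 2.05 and 1.48 to 211 and 255. *Chl1*, a close relative of *L1cam*, fell from 276 and 308 to 126 and 119. *Gfra2* was called higher at 0 in control and 1.39 and 1.94 in EED-null libraries, under the floor in both groups, and no fold is given. That call was lost with a pseudocount of 5 (0.41). Of 16 axon guidance genes 8 were called higher and 6 lower, beside 39.9% and 25.1% of all listed genes. *Plxna4*, a semaphorin receptor gene, went from 1.03 and 0.738 to 83.2 and 84.3, and the ephrin receptor genes parted, with *Ephb6* rising from 74.9 and 77.5 to 421 in each EED-null library and *Epha7* falling from 609 and 649 to 61.0 and 50.4.

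Of 19 ion channel genes 6 were called higher, 5 lower and 8 not called, not far from the 39.9% higher and 25.1% lower of all listed genes. The potassium channel genes *Kcna1* and *Kcna6* are neighbours on chromosome 6. *Kcna1* went from 2.05 and 0 to 141 and 142, and *Kcna6* from 2.05 and 2.21 to 179 and 181. *Cacna1h*, which encodes a T-type calcium channel, rose from 21.6 and 19.2 to 349 and 312. Of 18 transporters and pumps 8 were called higher and 4 lower, beside 39.9% and 25.1% of all listed genes, and 2 were called lower without EED-null library 2. *Abca1*, which encodes the cholesterol exporter, rose from 52.4 and 42.8 to 531 and 478. *Pde3b*, which encodes a phosphodiesterase of insulin signalling, went from 0 and 4.43 to 600 and 579. Of 16 cadherins and protocadherins 4 were called higher, 1 lower and 11 not called, beside 39.9% higher and 25.1% lower of all listed genes. The gamma protocadherins among them share exons, so their reads cannot be assigned with certainty, and with rescaling 5 members were called lower. The call of *Pcdhgb5* was lost without EED-null library 2 (-0.75), without control library 1 (-0.96) and with a pseudocount of 5 (-0.98).

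Imprinted genes, expressed from 1 parental copy, showed no common direction. Of 9 listed, 2 were called higher, 3 lower and 4 not called, beside 39.9% higher and 25.1% lower of all listed genes, and the median log2 change was -0.46. *Zdbf2*, paternally expressed, rose from 107 and 96.0 to 3444 and 3419, a log2 change of 5.07 ± 0.11 (SE, limma, adjusted p = 3.08e-07). *Peg3* rose from 424 and 482 to 1285 and 1056, a call that was lost after rescaling (0.97). *Dlk1* fell from 1434 and 1284 to 532 and 546, and *Plagl1* from 4201 and 4335 to 1923 and 1833. *Igf2* and *Mest* were not called, *Igf2* at 3590 and 3454 in control and 2650 and 2438 in EED-null libraries and *Mest* at 2413 and 2349 and at 2680 and 2519.

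The Polycomb list, which does not cover every gene of that group, had *Pcgf5*, a subunit of a variant of PRC1, and *Phf19*, an accessory subunit of PRC2, in the table. *Pcgf5* was at 82.1 and 65.7 in control and at 129 and 117 in EED-null libraries, and *Phf19* at 311 and 275 and at 229 and 204. Neither was called, and the median of the list changed sign with rescaling, from 0.15 to -0.24. *Cdkn1a*, which encodes the cell-cycle inhibitor p21, was at 336 and 337 in control and at 195 and 167 in EED-null libraries. It was not called at a log2 change of -0.89, and it was called lower after rescaling (-1.29) and without EED-null library 1 (-1.01). Of the contractile genes *Mylk* was called higher and *Myh14* lower, and without EED-null library 2 the call of *Myh14* was lost (-0.91).

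Cells in which PRC2 was inhibited rather than lost were compared with EED-null cells directly, with their own test. EED-null cells had received a Cre lentivirus and came from 1 clone, whereas EZHIP and K27M cells carried transgenes. The effects of these differences cannot be told apart from those of loss against inhibition of PRC2. Against EZHIP cells, EED-null cells had 220 genes higher (25.1%) and 173 lower (19.8%). The table was chosen on the EZHIP values, which favours genes that are extreme in EZHIP cells, so these numbers depend on that choice. Against K27M cells, 233 were higher (26.6%) and 243 lower (27.8%). Called alike against control, EZHIP and K27M cells were 62 genes that were higher (7.09%) and 40 that were lower (4.57%) in EED-null cells. All of these comparisons share the same EED-null libraries. Of the 51 transcription factors, 25 were higher and 5 lower in EED-null than in EZHIP cells, and 31 were higher and 3 lower than in K27M cells. *Hoxd13*, at 658 in each EED-null library, was at 105 and 88.9 in EZHIP and at 126 and 149 in K27M libraries (log2 differences 2.75 and 2.26, limma, adjusted p = 4.30e-05 and 2.16e-05). *Sox2* was at 166 and 137 in EZHIP libraries and at 0 in both K27M libraries. *Gata4* was at 863 and 960 in K27M libraries, and its difference from EED-null cells was not called (-0.52, limma, adjusted p = 0.174). *Sim1* was at 444 and 407 in EZHIP libraries, a difference of 0.15 that was not called (limma, adjusted p = 0.41).

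Of the 39 interferon-response genes, 14 were lower and none higher in EED-null than in EZHIP cells, beside 19.8% and 25.1% of all listed genes. Against K27M cells 36 were lower and 1 higher, beside 27.8% and 26.6%. *Oas2* was at 39.1 and 37.6 in EZHIP and at 1411 and 1606 in K27M libraries, with log2 differences of -2.96 and -8.21 (limma, adjusted p = 0.000235 and 3.82e-06). *Eln* was at 102 and 83.2 in EZHIP libraries, not called against EED-null cells, and at 1388 and 1750 in K27M libraries. *Zcchc5* was at 204 in both EZHIP libraries, and EED-null cells were lower by a log2 difference of -6.72. Large differences from EZHIP cells, which the choice of the table favours, included those of *Eomes* (4.25), at 42.6 and 27.4 in EZHIP libraries, and *Chl1* (5.84), at 1.18 and 1.14. *Cthrc1*, which encodes a secreted matrix protein, was at 280 and 235 in control, at 104 and 132 in EED-null and at 2.37 and 4.56 in EZHIP libraries. Its log2 difference of EED-null from EZHIP cells was 4.77, while its call against control was lost without either control library (-0.997 and -1.25), without either EED-null library (-0.95 and -1.29) and with a pseudocount of 0.1 (-1.13).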

How the data were processed

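RNA-seq libraries of control, EED-null, EZHIP and K27M MEFs were analysed, 2 per group, and groups were taken from the sample labels. Read numbers per gene are the authors' RSEM estimates (version 1.2.4 in the submitters' processing notes, which name the mm9 build), the authors chose genes with EBSeq, and the deposited signal is that estimate after division by 1 size factor per library. Every column of the table was used. From the step between low values, whole reads, within 0.001 of a whole number, made up between 72.2% and 82.5% of the values, depending on the library, and a count model was therefore not used. The chi-square per gene between replicates was 1.57 in control and 2.63 in EED-null cells, above sampling noise.

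The test on log2(value + 1) was limma (3.58.1, R 4.3.3), fitting 1 mean for each group from all 8 libraries, with calls at an adjusted p under 0.05 and 2-fold. The test was tried on simulated data first. Summaries used Python 3.11.15, pandas 2.3.3, numpy 2.4.6, scipy 1.17.1, pysam 0.24.0 and matplotlib 3.10.9. A single mm9 position was found for 850 of 875 genes, 19 had none and 6 had several. Windows of 250 bases precede the start site shared by most transcripts.

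Genes were picked by rule as the 15 with the largest rise and 10 with the largest fall among called genes with an established name, the 5 largest each way in value, the 5 largest each way that EZHIP cells put in the opposite direction, the 5 each way furthest from EZHIP cells, and members of each gene list, up to 4 called members with the largest changes or all members of lists of 12 or fewer. Apart from members of lists of 12 or fewer, a gene could be picked only if its EED-null and control libraries did not overlap. Not all of the picked genes are described in the text, and other genes described were chosen after their values were seen. The comparison, lists and rule were chosen with earlier results of these data known. Alternatives were rescaling on the listed genes, leaving out each library in turn, pseudocounts of 0.1 and 5, dropping genes with a mean under 5, the adjusted p alone, limma with a trend, a fit of the compared groups alone and a block for replicate number. The pooling of all 7 transcription factor lists was chosen after seeing the data.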

Additional observations from a re-analysis of the deposited data

Results flagged for a closer look

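For 11 genes called higher and 11 called lower in EED-null against control cells, the mean of EZHIP cells lay on the other side of control. The 5 each way with the largest change against control among genes with an established name are given as the log2 difference of EED-null minus EZHIP cells. The table holds only genes that differed at least 2-fold between EZHIP and control cells, so a large difference, and passing the direct test (limma), follow from how these genes were picked and add no support. Of the genes called higher in EED-null cells, *Auts2*, a chromatin-associated gene of neurodevelopment, differed by 6.98, with 124 and 144 in control, 649 and 617 in EED-null and 3.55 and 4.56 in EZHIP libraries. *St6galnac3*, a sialyltransferase gene, differed by 4.16, and *Fry*, a gene of cell morphology, by 4.46. *Cpxm1*, which encodes a carboxypeptidase-like protein, differed by 3.08, and *Daam2*, a formin gene linked to Wnt signalling, by 2.72. Of the genes called lower, *Cdsn*, which encodes corneodesmosin of the epidermis, differed by -4.86, with 60.6 and 42.8 in control, 8.32 and 9.69 in EED-null and 309 and 270 in EZHIP libraries. *Fam5c* differed by -4.26 and *Chodl*, a lectin gene, by -5.24, the latter with 148 and 168 in control, 33.3 and 30 in EED-null and 1148 and 1314 in EZHIP libraries. *Mgam*, which encodes an intestinal glucosidase, differed by -6.83, and *Fndc1* by -2.95. The calls of *Fam5c* and *Mgam* against control were lost with a pseudocount of 5 (-0.99 and -0.81), and that of *Chodl* with a pseudocount of 0.1 (-2.31). *Mgam* was at 2.05 and 5.90 in control and at 0 in both EED-null libraries, at least 1.13-fold lower.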

How the results depend on the processing

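The counts of genes called higher and lower in EED-null against control cells stayed within 1.5 times of 349 and 220 under the alternatives tried, between 311 and 431 higher and between 211 and 298 lower, the upper ends with the adjusted p alone. The median log2 change over all listed genes was 0.4071 with a mean value of at least 5, 0.3776 with a pseudocount of 5, 0.007208 after rescaling on the listed genes, and between 0.3789 and 0.4278 with a library left out; the cause was not tested. For EED-null against EZHIP, 601 genes passed with the adjusted p alone, against 393, since that alternative has no fold threshold. With the replicate number as a block, 347 genes were higher and 219 lower and the call of *Hoxc8* was lost (-1.09); the correlation of deviations between same-numbered control and EED-null libraries was -0.06, and over all pairs of groups it ranged from -0.09 to 0.11, so the pairing was not used. Of 2340 values of the 156 genes picked by rule, 2306 kept direction and side of the threshold, 26 of 13 genes were no longer past it, 8 passed it newly and none reversed. Leaving out an EZHIP or K27M library, alternatives chosen after seeing the data, gave between 347 and 349 genes higher and between 220 and 223 lower. With 1 library left in a group, that library was assumed to vary like the other groups. Of the interferon-response genes 36 or 37 were called lower throughout, and of the zinc-finger genes 9, after rescaling, or 10 were called higher.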

Other observations

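Among genes outside the gene lists, several with roles in development or hormone response stood out by value and were chosen after their values were seen. *Prg4*, which encodes lubricin of joint surfaces, went from 12.3 and 17.8 in control to 754 and 755 in EED-null libraries. *Gjb2*, a connexin gene of epithelia and the inner ear, was at 0 in both control libraries and at 191 and 204 in EED-null libraries, at least 74.8-fold higher. *Dach1*, a transcription factor gene of eye and limb, went from 1.03 and 2.21 to 237 and 217, and *Sfmbt2*, which encodes a protein of the Polycomb group and was not on that list, from 12.3 and 14.8 to 313 and 309. *Esr2*, which encodes estrogen receptor beta, went from 37.0 and 50.9 to 0 and 0.969, and *Car9*, a carbonic anhydrase gene induced by hypoxia, from 109 and 123 to 2.77 and 6.78.

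By chromosome, the median log2 change in EED-null against control cells ranged from -0.73 over 58 listed genes of chromosome 9 to 1.53 over 31 of chromosome 13. Chromosome 1 had a median of 1.34 over 65 genes. For EED-null minus EZHIP cells the medians ranged from -0.79 over 67 genes of chromosome 5 to 0.81 over 26 genes of chromosome X. These medians depend on which genes of a chromosome entered the table, and an effect of the chromosome was not tested.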
